A study of Mus musculus with 11 samples.

Results

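Transcript levels of 9 genes of the calcium/calmodulin kinase cascade and of calcineurin were examined in the mouse hippocampus, in its CA1 field. The genes were chosen by name as calcium-calmodulin signalling genes outside the Camk2 family: Calm2, Ppp3ca, Ppp3cb, Ppp3r1, Camkk1, Camkk2, Camk1, Camk1d and Camk4. They are 9 of the 48709 gene identifiers in the count files, and all 9 were among the 17293 genes with enough reads to be tested. The study compared 6 libraries from mice carrying the CamkdeltaC transgene with 5 libraries from their control littermates. All mice were 3 months old, and males and females were used without the sex of a library being given. CamkdeltaC is the cytosolic splice variant of CaM kinase II delta. In the mouse line known by this name the transgene is driven by a heart muscle promoter, so it models heart failure rather than a change made in neurons. CA1 tissue was dissected and frozen, and polyadenylated RNA was sequenced as single-end reads of 50 bases.

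Calmodulin is a small protein that changes shape when it binds calcium and then switches on other enzymes. In the kinase cascade it activates the CaM kinase kinases (Camkk1 and Camkk2), which phosphorylate and further activate CaM kinase I (Camk1, Camk1d) and CaM kinase IV (Camk4), a nuclear kinase that acts on the transcription factor CREB. Calcineurin is the phosphatase that answers the same signal. It consists of a catalytic A subunit (Ppp3ca or Ppp3cb in brain) and a calcium-binding B subunit (Ppp3r1), and in CA1 neurons it is known for its part in long-term depression.

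Levels are given as CPM, the reads of a gene scaled to a common library size. A gene was called changed when the edgeR quasi-likelihood test gave a Benjamini-Hochberg adjusted p under 0.05 over all 17293 genes. Of the 9 genes, 2 were called lower in transgenic mice, Ppp3cb and Ppp3r1, and 0 were called higher, by edgeR, DESeq2 or limma voom; 0 had an unadjusted p under 0.05 in that direction. Among all genes tested, 10.5% were called lower and 7.41% higher, so the count among so few genes was not read as particular to them. The median log2 fold change of the 9 genes was -0.093, against 0.009 over all genes tested. These are bulk samples, in which fewer cells of a type and less RNA per cell cannot be told apart. The labels do not tie each library to its own mouse, so the p-values speak only of the spread among these libraries, part of which may be technical.

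Library depth and base composition both bear on these values. Total counts ranged from 24403918 to 34153726 in the transgenic libraries and from 14263784 to 36898689 in the controls, so the least covered of the 9 genes, Camk1, still had 711 reads in its shallowest library. The libraries also differed in how strongly transcripts rich in G and C were represented. The slope of log2 CPM, relative to each gene's mean, on transcript GC content ranged from -0.061 to 0.274 per 10 percentage points in the transgenic libraries and from -0.220 to -0.062 in the controls. The 2 groups therefore did not overlap in this slope, although transgenic 6 and control 2 were almost equal. For this reason each fold change of the 9 genes is also given after the GC trend of each library was removed, a fit in which 1.98% of all genes were called. Because the slope moved with genotype, the 2 cannot be told apart in these samples, and removing the trend can also remove a difference that belongs to genotype.

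Calm2 and Calm3 encode the same protein, calmodulin, with different codons, which matters here because reads of 50 bases must be assigned to the right copy. The first 60 coding bases (GENCODE annotation of mm10, 5′ to 3′) are shown because they start both reading frames, with capitals at the 8 positions where the genes differ.
Calm2: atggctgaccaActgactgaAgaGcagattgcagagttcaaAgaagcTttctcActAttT
Calm3: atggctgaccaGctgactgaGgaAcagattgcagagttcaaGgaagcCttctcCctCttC
Over the 450 coding bases, Calm2 and Calm3 were identical at 82.7%. The longest unbroken shared run was 17 bases, shorter than a read. GC content was 45.6% in the Calm2 coding sequence and 52.0% in that of Calm3. Some 9.72% of the 50-base words of Calm2 transcripts also occurred in the annotated genes Gm7308, Gm15720 or Gm14480, so a part of its reads is uncertain.

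The catalytic subunits of calcineurin are also encoded by similar genes. A stretch of 60 coding bases is shown from the longest run they share, since it codes for part of the segment to which calmodulin binds. Bases 1169 to 1228 of Ppp3ca and 1199 to 1258 of Ppp3cb are aligned, counted from the start codon, with capitals at the 7 positions that differ.
Ppp3ca: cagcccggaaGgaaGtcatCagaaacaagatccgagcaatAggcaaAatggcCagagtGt
Ppp3cb: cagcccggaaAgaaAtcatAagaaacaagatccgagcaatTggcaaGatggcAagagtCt
The coding sequences were identical at 74.0% of 1548 aligned bases, and the longest shared run was 20 bases, so no 50-base word was shared by their transcripts. They differed in base composition. G or C stood at 55.7% of the third positions of codons in Ppp3ca and at 35.7% in Ppp3cb. The GC content of the whole longest transcript was 45.4% in Ppp3ca, 39.8% in Ppp3cb and 41.4% in Ppp3r1.

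The order of the 9 genes by level was set in the controls, on the scale of CPM per kilobase of exon. Calm2 stood highest at 590.4 ± 40.8 (SD, n = 5), followed by Ppp3r1 at 252 ± 19.9 and Ppp3ca at 159 ± 18.1. Next came Camk4 at 48.4 ± 5.90, Camkk1 at 42.8 ± 3.24 and Ppp3cb at 41.5 ± 2.29. The neighbours within this middle group overlapped over the 5 libraries, whereas all other neighbours were apart. Camk1d at 22.8 ± 3.03, Camkk2 at 16.6 ± 1.80 and Camk1 at 8.26 ± 0.523 were the lowest. In the transgenic libraries Ppp3r1 at 199 ± 36.0 (SD, n = 6) overlapped Ppp3ca at 141 ± 16.2, and Ppp3cb at 30.4 ± 4.68 lay below and apart from Camkk1 at 46.9 ± 7.21.

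**Figure D1:**
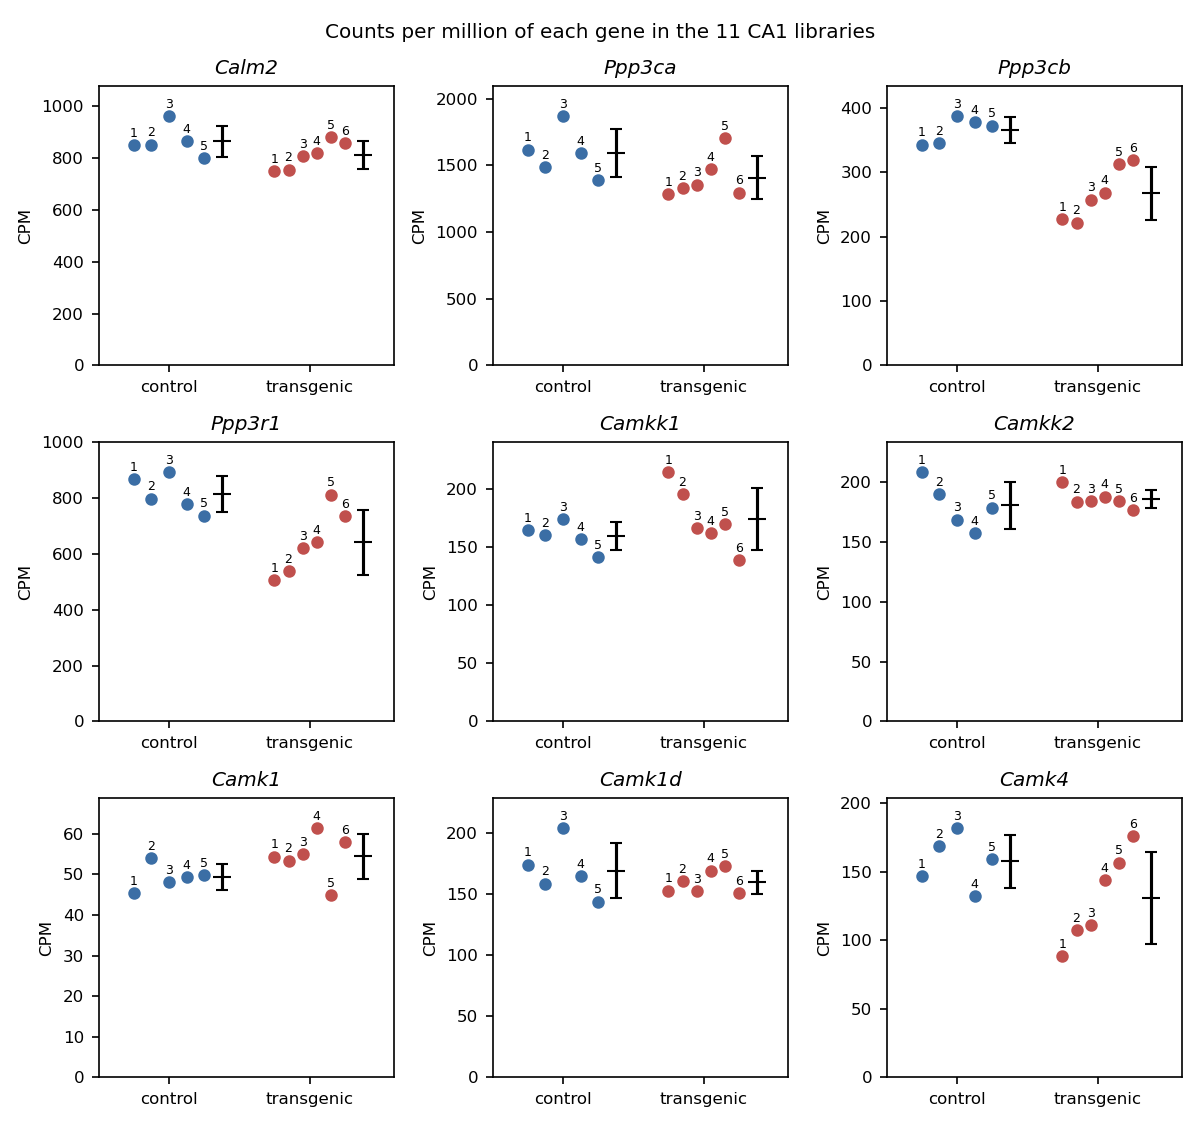
CPM (reads scaled to a common library size) of each of the 9 genes, with 1 point per library numbered by replicate and a bar for the mean ± SD of each genotype (control n = 5, transgenic n = 6). All 6 transgenic libraries lie below all controls for Ppp3cb, and 5 of 6 do for Ppp3r1; in the other panels the groups overlap.

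Calm2 (ENSMUSG00000036438, chromosome 17, 87433412 to 87446935, minus strand, mm10) encodes calmodulin, the calcium sensor upstream of the other 8 genes. It measured 748.8, 755.0, 807.8, 819.4, 882.1 and 858.2 CPM in transgenic libraries 1 to 6 and 851.2, 851.9, 962.9, 865.6 and 798.6 CPM in controls 1 to 5. Transgenic 1 and 2 were below every control, and the other 4 transgenic libraries lay within the control range. The log2 fold change was -0.09 (SE 0.06, edgeR adjusted p = 0.301). It took the opposite sign once the GC trend was removed, 0.12 (SE 0.04, edgeR adjusted p = 0.177). The level of Calm2 was thus not called different in either fit, and its direction depended on the GC trend.

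Calm3, which encodes the same protein as Calm2, showed how the balance of calmodulin mRNA varied. Calm3, whose transcript has a GC content of 58.3%, rose from 1469 ± 69.7 CPM (SD, n = 5) to 1707 ± 120 CPM (SD, n = 6), a log2 fold change of 0.22 (SE 0.06, edgeR adjusted p = 0.0267). Per kilobase, the ratio of Calm3 to Calm2 was 1.03 ± 0.062 in controls (range 0.944 to 1.10) and 1.28 ± 0.158 in transgenic libraries (range 1.05 to 1.44), given without a test. Transgenic 1 to 5 stood above every control in this ratio, and transgenic 6 lay within the control range. These ratios were taken with the GC trend left in. Removing the GC trend took Calm3 to 0.04 (edgeR adjusted p = 0.724). In that fit Calm2 stood above it at 0.12 (edgeR adjusted p = 0.177), so the ratio was no longer higher in transgenic libraries. The direction of the ratio thus depended on the GC trend.

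**Figure D2:**
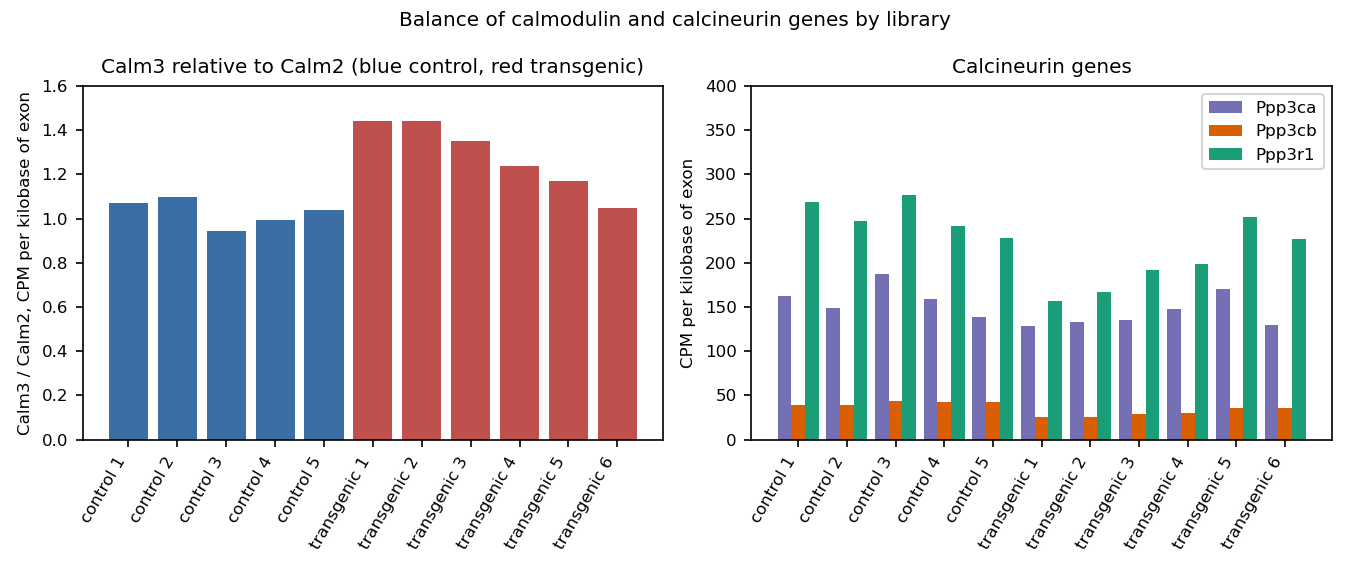
Left, ratio of Calm3 to Calm2 (both in CPM per kilobase of exon) in each library; right, CPM per kilobase of exon of the catalytic subunits Ppp3ca and Ppp3cb and the regulatory subunit Ppp3r1 in each library. The Calm3 to Calm2 ratio is 0.944 to 1.10 in controls and 1.05 to 1.44 in transgenic libraries, and Ppp3cb is the smallest calcineurin bar in all 11 libraries. The GC trend is not removed from these values.

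Ppp3cb (ENSMUSG00000021816, chromosome 14, 20499364 to 20546573, minus strand, mm10), the beta form of the catalytic subunit of calcineurin, fell in transgenic CA1. It measured 227.1, 221.8, 257.9, 268.8, 312.4 and 319.1 CPM in transgenic libraries 1 to 6. In controls 1 to 5 it measured 343.1, 345.2, 387.9, 378.1 and 372.9 CPM. The highest transgenic library was below the lowest control, a separation in this direction that 4.73% of all genes tested showed, and 0 of the 9 genes were separated in the other direction, against 3.04% of all genes. The mean was 268 ± 41.2 CPM in transgenic and 365 ± 20.2 CPM in control libraries, a change of -26.7%. The log2 fold change was -0.45 (SE 0.09, edgeR adjusted p = 0.0126).

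The fall of Ppp3cb was called in each of the 11 fits that left out a single library, with log2 fold changes from -0.50 to -0.40 and edgeR adjusted p-values from 0.00178 to 0.0390. It was not called once the GC trend was removed. The difference was then -0.10 (SE 0.04, edgeR adjusted p = 0.144), and levels were 279.9 to 313.5 CPM in transgenic and 312.5 to 324.7 CPM in control libraries. Transgenic 5 alone then reached into the control range, and 0 of the 9 genes had all transgenic libraries below the controls, against 1.45% of all genes. Within the transgenic group the 2 libraries with the steepest GC slopes, transgenic 1 and 2, had the lowest Ppp3cb levels, and transgenic 5 and 6, with slopes of 0.016 and -0.061, the highest. Transgenic 6 and control 2, with slopes of -0.061 and -0.062, measured 319.1 and 345.2 CPM.

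Ppp3r1 (ENSMUSG00000033953, chromosome 11, 17159263 to 17200375, plus strand, mm10) encodes calcineurin B, the calcium-binding subunit that both catalytic forms need. It measured 505.0, 537.3, 620.4, 641.4, 812.2 and 734.3 CPM in transgenic libraries 1 to 6. In controls 1 to 5 it measured 866.8, 797.8, 893.3, 778.4 and 737.3 CPM. Of the 6 transgenic libraries, 5 were below all controls and transgenic 5 was within their range. The log2 fold change was -0.34 (SE 0.11, edgeR adjusted p = 0.0451), close to the threshold.

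The call for Ppp3r1 was less firm than that for Ppp3cb. It was kept in 2 of the 11 fits that left out a library, without transgenic 5 (-0.42, edgeR adjusted p = 0.0155) and without transgenic 6 (-0.39, edgeR adjusted p = 0.0197). In the 9 fits without transgenic 1, 2, 3 or 4 or without any single control, the log2 fold change was -0.28 to -0.38 and the edgeR adjusted p was 0.0634 to 0.111. Removal of the GC trend left -0.09 (SE 0.07, edgeR adjusted p = 0.590). A share of 13% of the 50-base words of Ppp3r1 is also in Wdr92, which overlaps it on the same strand by 462 exonic bases. Wdr92 itself measured 7.42 ± 0.336 CPM in transgenic and 7.34 ± 0.808 CPM in control libraries, far below Ppp3r1.

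Ppp3ca (ENSMUSG00000028161, chromosome 3, 136670124 to 136937727, plus strand, mm10), the alpha form of the catalytic subunit and the main one in forebrain neurons, was not called. It measured 1283, 1329, 1356, 1469, 1706 and 1294 CPM in transgenic libraries 1 to 6 and 1617, 1487, 1870.2, 1591 and 1388 CPM in controls 1 to 5. Transgenic 4 and 5 lay within the control range and the other 4 below it. Ppp3ca gave a log2 fold change of -0.18 (SE 0.09, edgeR adjusted p = 0.168), and it passed only without transgenic 5, at -0.24 (edgeR adjusted p = 0.0477). Removal of the GC trend left -0.07 (SE 0.08, edgeR adjusted p = 0.692).

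The balance of the calcineurin subunits was set out per kilobase and without a test. The ratio of Ppp3ca to Ppp3cb, each in CPM per kilobase of exon, was 3.84 ± 0.387 in controls (range 3.28 to 4.26) and 4.69 ± 0.586 in transgenic libraries (range 3.58 to 5.29). Transgenic 1 to 5 stood above every control in this ratio, whereas transgenic 6 lay within the control range. The ratio was taken with the GC trend left in, where the log2 fold changes of Ppp3ca and Ppp3cb were -0.18 and -0.45. With the trend removed they were close, at -0.07 and -0.10, so the ratio then differed less between the groups. The ratio of Ppp3r1 to the sum of Ppp3ca and Ppp3cb was 1.26 ± 0.0661 in controls and 1.16 ± 0.129 in transgenic libraries, with overlapping ranges of 1.19 to 1.34 and 1.01 to 1.37.

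The 250 bases before the RefSeq transcription start (GRCm38.p6, 5′ to 3′ on the gene's strand) are shown for the 2 genes that were called, because they moved in the same direction. Ppp3r1 lies at chr11:17159048-17159297 on the plus strand and Ppp3cb at chr14:20546574-20546823 on the minus strand. Capitals mark the GC box GGGCGG and the core TGACG of the cyclic AMP response element on either strand, and where GC boxes overlap they run together.
Ppp3r1: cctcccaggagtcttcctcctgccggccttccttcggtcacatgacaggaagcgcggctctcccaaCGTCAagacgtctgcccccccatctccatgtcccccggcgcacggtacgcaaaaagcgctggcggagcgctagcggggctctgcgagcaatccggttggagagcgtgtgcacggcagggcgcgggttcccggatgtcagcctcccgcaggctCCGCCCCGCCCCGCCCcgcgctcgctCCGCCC
Ppp3cb: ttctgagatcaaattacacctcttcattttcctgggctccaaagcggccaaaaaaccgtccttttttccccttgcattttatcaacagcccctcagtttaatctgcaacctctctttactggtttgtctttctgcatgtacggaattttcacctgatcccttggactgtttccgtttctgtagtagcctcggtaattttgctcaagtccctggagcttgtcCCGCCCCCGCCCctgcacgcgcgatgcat
The Ppp3r1 window had a GC content of 70.8%, 4 GC boxes, 3 of them overlapping by 1 base, and 1 TGACG core. The Ppp3cb window had 48.4% GC and 2 GC boxes, and also 3 copies of the core GGAAA bound by NFAT, the transcription factor that calcineurin activates. Among 32851 promoter windows of this length, 32.7% held a GC box, 17.8% a TGACG core, 55.6% a GGAAA core and 1.55% the full element TGACGTCA, and the median GC content was 52.4%. Neither window held the full element or the TATA box TATAAA, which 12.4% of windows held. The 2 promoters thus differed in composition, and a match to these letters is a description of the sequence only.

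Camkk1 (ENSMUSG00000020785, chromosome 11, 73019008 to 73042073, plus strand, mm10), the alpha CaM kinase kinase, measured 215.1, 195.7, 166.8, 162.1, 169.8 and 138.7 CPM in transgenic libraries 1 to 6. In controls 1 to 5 it measured 165.0, 160.6, 174.3, 156.8 and 141.4 CPM. Transgenic 1 and 2 were above every control, transgenic 6 below every control, and the other 3 within their range. Camkk1 gave a log2 fold change of 0.13 (SE 0.10, edgeR adjusted p = 0.365) and -0.02 (SE 0.08, edgeR adjusted p = 0.946) with the GC trend removed. Camkk1 has the most GC-rich transcript of the 9 genes, at 55.2%, and its 2 highest libraries were those in which Ppp3cb and Ppp3r1 were lowest.

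Camkk2 (ENSMUSG00000029471, chromosome 5, 122731170 to 122779409, minus strand, mm10), the beta CaM kinase kinase, also phosphorylates AMP-activated protein kinase. It measured 200.4, 184.0, 184.1, 188.3, 184.3 and 176.8 CPM in transgenic libraries 1 to 6 and 208.8, 190.1, 169.0, 157.6 and 178.9 CPM in controls 1 to 5. All 6 transgenic libraries lay within the control range. Their log2 fold change from the controls was 0.04 (SE 0.07, edgeR adjusted p = 0.688), and -0.06 (SE 0.06, edgeR adjusted p = 0.645) with the GC trend removed. Per kilobase, Camkk2 stood at 0.388 ± 0.0485 of Camkk1 in controls and 0.370 ± 0.0449 in transgenic mice, again with overlapping ranges.

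Camk1 (ENSMUSG00000030272, chromosome 6, 113334124 to 113343984, minus strand, mm10), the alpha form of CaM kinase I, measured 54.3, 53.4, 55.1, 61.5, 44.8 and 58.0 CPM in transgenic libraries 1 to 6. In controls 1 to 5 it measured 45.5, 54.1, 48.2, 49.3 and 49.8 CPM. Transgenic 1, 3, 4 and 6 were above every control and transgenic 5 was below them all. The log2 fold change was 0.14 (SE 0.07, edgeR adjusted p = 0.184), and it passed only without transgenic 5, at 0.19 (edgeR adjusted p = 0.0418). Removal of the GC trend left 0.10 (SE 0.07, edgeR adjusted p = 0.479). Ogg1, a DNA repair gene on the opposite strand that overlaps Camk1 by 232 exonic bases, rose from 4.99 ± 0.215 to 6.38 ± 0.636 CPM (log2 fold change 0.35, SE 0.09, edgeR adjusted p = 0.0216). It was not called once the GC trend was removed (0.22, edgeR adjusted p = 0.123). The kit does not mark strand, so reads from the overlap cannot be assigned to either gene.

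Camk1d (ENSMUSG00000039145, chromosome 2, 5293457 to 5714515, minus strand, mm10), the delta form of CaM kinase I, measured 152.9, 160.4, 152.2, 169.2, 172.9 and 150.8 CPM in transgenic libraries 1 to 6. Controls 1 to 5 measured 174.2, 158.5, 204.2, 164.8 and 143.8 CPM. All 6 transgenic libraries lay within the control range, and their coefficient of variation was 5.92%, against 13.3% in controls. Camk1d gave a log2 fold change of -0.08 (SE 0.08, edgeR adjusted p = 0.479), and -0.02 (SE 0.07, edgeR adjusted p = 0.905) with the GC trend removed.

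Camk4 (ENSMUSG00000038128, chromosome 18, 32934931 to 33191228, plus strand, mm10), the nuclear CaM kinase IV, was the most variable of the 9 genes within the transgenic group. It measured 88.5, 107.6, 110.9, 144.1, 156.8 and 176.0 CPM in transgenic libraries 1 to 6 and 146.8, 168.7, 182.1, 132.3 and 159.2 CPM in controls 1 to 5. Transgenic 1, 2 and 3 were below every control and the other 3 were within the control range. The coefficient of variation was 25.6% in transgenic and 12.2% in control libraries. Camk4 gave a log2 fold change of -0.27 (SE 0.15, edgeR adjusted p = 0.226), and with the GC trend removed it hardly moved, at -0.25 (SE 0.15, edgeR adjusted p = 0.418). Its level rose in order from transgenic 1 to transgenic 6, while their GC slope fell from 0.274 to -0.061. That order stayed with the GC trend removed, from 89.3 to 176.4 CPM, and what lies behind it was not tested. Camk4 passed the threshold in 2 other fits, with Xist as a covariate for sex (-0.36, edgeR adjusted p = 0.0441) and with 1 surrogate variable (-0.37, edgeR adjusted p = 0.0129).

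The fold changes of the 9 genes were set against the GC content of their longest transcript. The 3 genes with the lowest GC content, Ppp3cb, Ppp3r1 and Calm2, moved the most when the trend was removed, by a shift towards higher values in transgenic mice. The 3 with the highest, Camk1, Camkk2 and Camkk1, moved the other way. All genes called lower had a median transcript GC content of 41.6% and all called higher 56.1%, against 49.6% over all genes tested. Ppp3cb and Ppp3r1, at 39.8% and 41.4%, were below the median of the genes called lower. After the removal 0 of the 9 genes were called lower by edgeR, against 0.821% of all genes tested, and 0 higher, against 1.16%. Ppp3cb and Calm2 had an unadjusted p under 0.05, 1 lower and 1 higher, and the median log2 fold change of the 9 genes was -0.060.

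**Figure D3:**
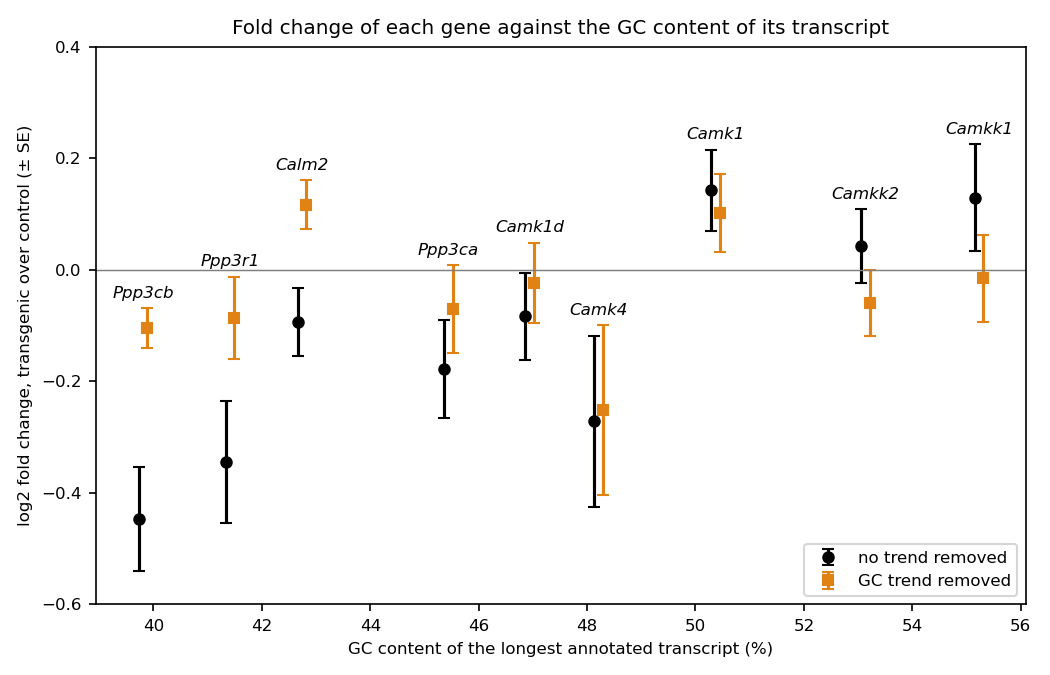
Log2 fold change (transgenic over control, ± SE) of each of the 9 genes against the GC content (%) of its longest annotated transcript, without (black circles) and with (orange squares) the GC trend of each library removed. Ppp3cb goes from -0.45 to -0.10 and Ppp3r1 from -0.34 to -0.09, Calm2, Camkk1 and Camkk2 change sign, and Camk4 stays at -0.27 and -0.25.

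**Figure D4:**
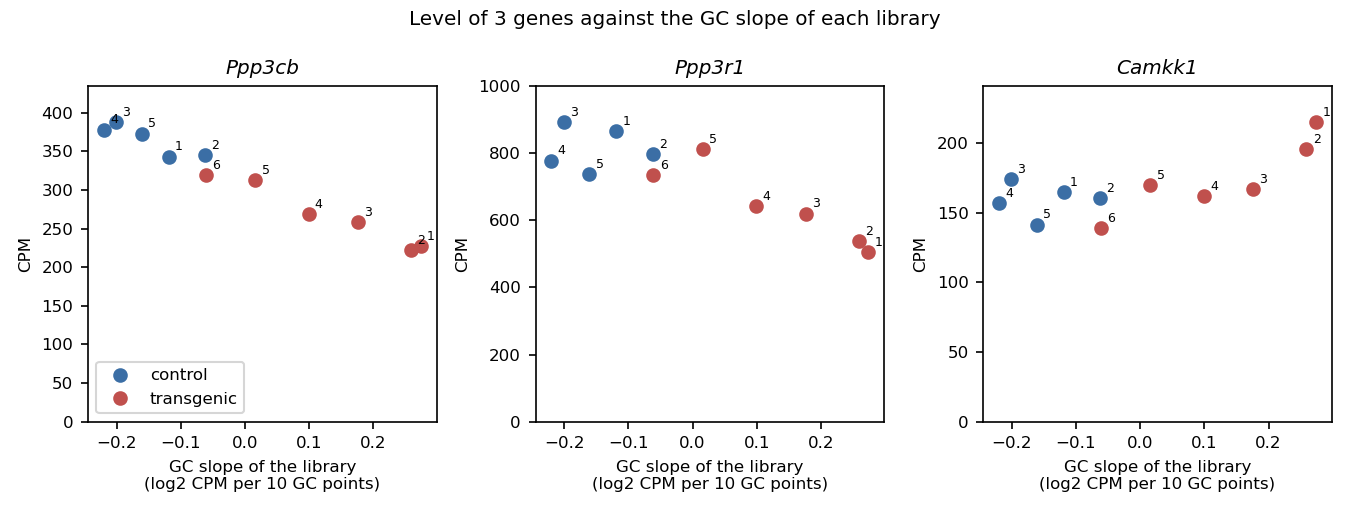
CPM of Ppp3cb, Ppp3r1 and Camkk1 in each library against the GC slope of that library (log2 CPM per 10 percentage points of GC content), with points numbered by replicate. Transgenic 1 and 2, with slopes of 0.274 and 0.259, are lowest for Ppp3cb and Ppp3r1 and highest for Camkk1.

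Among 13 other calcineurin subunits, inhibitors and anchors, 12 were tested, 1 rose and 1 fell, where 7.41% of all genes tested were called higher and 10.5% lower. The median log2 fold change of the list was 0.038. Rcan1, an inhibitor of calcineurin whose gene is itself induced by calcineurin through NFAT, rose from 42.5 ± 3.33 CPM (SD, n = 5) to 50.1 ± 4.22 CPM (SD, n = 6), a log2 fold change of 0.23 (SE 0.07, edgeR adjusted p = 0.0356). Akap5, which anchors calcineurin at the synapse, fell from 121 ± 10.8 to 99.3 ± 8.28 CPM (-0.28, SE 0.07, edgeR adjusted p = 0.0203). The catalytic subunit Ppp3cc, best known from testis, was at 19.1 ± 0.906 CPM in controls and 19.0 ± 1.18 CPM in transgenic mice. After removal of the GC trend Rcan1 gave 0.11 (edgeR adjusted p = 0.339) and Akap5 -0.12 (edgeR adjusted p = 0.342).

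Of 15 substrates and targets of calcineurin, 14 were tested, 5 rose and 1 fell, beside 7.41% higher and 10.5% lower over all genes tested. The median log2 fold change was 0.146. Those that rose were Crtc2, a CREB coactivator (0.19, edgeR adjusted p = 0.0394), Ppp1r1a and Ppp1r1b, inhibitors of protein phosphatase-1 (0.35 and 0.30, edgeR adjusted p = 0.0400 and 0.0223), Bad, a promoter of cell death (0.25, edgeR adjusted p = 0.0427), and Tfeb, a regulator of lysosomal genes (0.37, edgeR adjusted p = 0.0264). Dnm3, a dynamin, fell by 0.34 on the log2 scale (edgeR adjusted p = 0.0228). The NFAT genes Nfatc1, Nfatc2, Nfatc3 and Nfatc4 were not called, with log2 fold changes of 0.22, 0.09, -0.10 and 0.12. In the fit without the GC trend the median of this list was -0.004 and 0 of the 14 genes were called by edgeR, with 1 higher and 1 lower at an unadjusted p under 0.05.

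Of 20 substrates and targets of the CaM kinase cascade, 2 rose and 4 fell, again beside 7.41% and 10.5% over all genes tested. The median log2 fold change was -0.024. Creb1, which encodes the transcription factor phosphorylated by CaM kinase IV, fell from 61.1 ± 3.98 CPM (SD, n = 5) to 43.1 ± 9.26 CPM (SD, n = 6), a log2 fold change of -0.50 (SE 0.12, edgeR adjusted p = 0.0190). Prkaa1, a catalytic subunit of AMP-activated protein kinase and so a target of Camkk2, fell from 39.2 ± 3.92 to 29.8 ± 2.66 CPM (-0.39, SE 0.08, edgeR adjusted p = 0.0123). Crem (-0.30, edgeR adjusted p = 0.0212) and Mef2a (-0.33, edgeR adjusted p = 0.0147), both transcription factors, also fell. Hdac5, a histone deacetylase that CaM kinases send out of the nucleus, and Akt1 rose (0.25 and 0.19, edgeR adjusted p = 0.0267 and 0.0443). Without the GC trend 0 of the 20 were called by edgeR (3 lower and 0 higher at an unadjusted p under 0.05), and Creb1 gave -0.16 (edgeR adjusted p = 0.159) and Prkaa1 -0.06 (edgeR adjusted p = 0.625).

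For the 3 remaining lists, too, the shares over all genes tested were 7.41% called higher and 10.5% lower. Of 11 other CaM kinases and their regulators 1 fell and 0 rose, and the median log2 fold change was 0.156. The gene that fell was Ppm1e, a phosphatase that removes the activating phosphate from CaM kinases, which went from 514 ± 48.1 CPM to 424 ± 36.4 CPM (-0.28, SE 0.07, edgeR adjusted p = 0.0252). With the GC trend removed Ppm1e gave -0.15 (edgeR adjusted p = 0.245). Of 7 other calmodulin genes and calmodulin-binding buffers, Calm3 alone was called, and the median was 0.057. Of 19 other enzymes that calmodulin regulates, 0 were called by edgeR or DESeq2 and 1 by limma voom, with a median of 0.005. In edgeR fits with a replicate block, the level of Xist or 1 surrogate variable added, 2, 1 and 1 were called. In the edgeR fit with no covariate 2 of the 19 had an unadjusted p under 0.05. They were Pde1a, a cyclic nucleotide phosphodiesterase (-0.21, edgeR adjusted p = 0.0875), and Itpka, an inositol phosphate kinase (0.29, edgeR adjusted p = 0.0985).

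Over these 6 lists 83 of 85 genes were tested, 9 rose and 7 fell, counts near the shares of 7.41% and 10.5% over all genes tested. The median log2 fold change was 0.057. The 9 that rose had transcript GC contents of at least 54.5% and the 7 that fell of at most 45.0%. The count also depended on single libraries, being 3 without control 4 and 29 without transgenic 6, and the number that rose was 0 without transgenic 2 or without control 4. After the GC trend was removed, 0 of the 83 genes were called and the median was -0.005.

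The genes whose levels followed those of the 9 genes most closely over the 11 libraries were found among 8483 protein-coding genes. Likeness was the root mean square difference of log2 CPM after each gene was centred on its own mean. Nearest to Ppp3cb were Scoc (0.031) and Cul3 (0.034), against a spread of Ppp3cb itself of 0.278, and both have a GC content below that of Ppp3cb, at 36.1% and 38.5%. Nearest to Ppp3r1 were Nipa1 (0.061) and Wasl (0.062), to Camk4 Slc30a4 (0.062) and Gpcpd1 (0.086), and to Calm2 Ppp2ca (0.025) and Nptn (0.037). Nipa1 and Wasl, at 47.5% and 43.7% GC, were above Ppp3r1 at 41.4%. Slc30a4 and Gpcpd1, at 41.2% and 37.6%, were below Camk4 at 48.2%. Ppp2ca and Nptn, at 44.6% and 39.5%, lay on either side of Calm2 at 42.7%. For Ppp3ca they were Rbfox1 (0.058) and Epha4 (0.060), and for Camk1d Epha4 (0.067) and Rbbp7 (0.070). Elmo2 (0.061) was nearest to Camkk1. For Camkk2 they were Baz2a (0.045) and Inpp5e (0.050), and for Camk1 Slc7a8 (0.057) and Coq7 (0.059). Within the 9 genes the closest pair was Ppp3ca and Camk1d (0.083), whose own spreads were 0.168 and 0.132. The subunits Ppp3cb and Ppp3r1 differed by 0.112, against larger spreads of 0.278 and 0.260. The difference is not scaled to the spread, so genes that vary little come out closer.

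The cell make-up of the samples was read from marker lists summed in CPM. Markers of CA1 pyramidal neurons, the main neurons of this field, summed to 2760 to 3630 CPM in transgenic and 2680 to 3270 CPM in control libraries, with 0 of 10 called by edgeR (3 higher and 1 lower at an unadjusted p under 0.05). Markers of CA3 and CA2 neurons summed to 441 to 721 and 511 to 733 CPM (0 of 9 called). Those of dentate granule cells summed to 102 to 236 and 98.1 to 274 CPM (0 of 8 called). The median log2 fold change of the dentate markers was -0.295, with 6 of 8 below 0. With the GC trend removed it was -0.203, with 7 of 8 below 0. Microglia markers summed to 372 to 485 CPM in transgenic and 337 to 407 CPM in control libraries, and 4 of 10 rose (Csf1r, C1qa, C1qb and Trem2). At an unadjusted edgeR p under 0.05, 6 of the 10 were higher and 1 was lower. Over all genes tested 7.41% were called higher and 10.5% lower. Oligodendrocyte markers summed to 3740 to 6340 and 3110 to 5210 CPM, with 0 of 9 called by edgeR and 3 higher at an unadjusted p under 0.05. Their median log2 fold change was 0.291, with 0 of 9 below 0. After removal of the GC trend it was 0.206, with 1 of 9 below 0. Astrocyte markers summed to 5510 to 6440 and 6020 to 6830 CPM, where Aldh1l1 and Mlc1 rose and Slc1a2 fell. Interneuron markers summed to 1110 to 1290 and 1110 to 1230 CPM, where Slc32a1 rose, and endothelial and mural markers to 185 to 221 and 194 to 255 CPM, where Rgs5 fell. Of the heart muscle markers, Tnni3, Actc1, Myl7, Nppa and Mybpc3 were below 1 CPM in every library, and of the 5 tested Ryr2, which neurons also express, fell. Once the GC trend was removed 0 marker genes were called by edgeR in any list, but Trem2 (0.45 before, 0.39 after) and Ryr2 (-0.27 before, -0.29 after) kept folds of similar size and just missed the threshold, each at an edgeR adjusted p of 0.0512. The part of cell make-up in the levels of the 9 genes was not tested.

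The authors' deposited table of 2014 genes lower in transgenic mice holds Ppp3cb, with a log2 fold change of -0.445 and an adjusted p of 0.000344, and Ppp3r1, with -0.343 and 0.0210. The authors' deposited table of 1780 genes that were higher holds 0 of the 9 genes. Both tables were made from the same libraries as the tests above and are not independent of them.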

How the data were processed

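Raw counts per gene were deposited by the authors for each of the 11 libraries, on mm10. Per the submitters' processing notes, the tools were STAR 2.5.2b, Subread 1.5.1 with featureCounts, and FastQC 0.11.5, with settings not given in the sources used here. Tables of genes higher and lower were deposited as well, with a log2 fold change, an adjusted p-value and a per-library signal that is the count divided by a size factor. The signal was not used further, and which tool made these tables is not stated.

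Names, exons and GC content came from the GENCODE mouse annotation on mm10 (48349 of 48709 identifiers matched, and 360 did not), coding sequences from the same source, and promoters from RefSeq, which held 6 of the 9 genes. Protein sequences were not used here. Genes were kept with filterByExpr, which left 17293 genes with 99.9% of the counts, of which 17246 had a GC value. Counts of any pair of libraries in a group differed beyond sampling noise (chi-square over its degrees of freedom 6.24 to 49).

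Counts were scaled by TMM and tested with edgeR 4.0.16 in R 4.3.3 (quasi-likelihood F test, transgenic against control, all 11 libraries, no covariate, Benjamini-Hochberg adjustment over all genes tested). Each standard error is the fold change over the root of its F statistic. The GC trend was a lowess curve per library (span 0.3) on the deviation of log2 CPM (prior count 2) from the gene's mean, entered as an offset. Alternatives were DESeq2 size factors, no filter, DESeq2 1.42.0, limma 3.58.1 voom with sample weights, a replicate block, 1 surrogate variable (sva 3.50.0), the level of Xist as a covariate, GC and length trends removed, and each library left out.

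The 9 genes and all lists were chosen with earlier results of these data known. Named genes were the 9, every called gene of each list or else the 2 with the smallest p, and the 2 most similar genes (mean log2 CPM of at least 4). Wdr92, Ogg1, Ppp3cc and the NFAT genes were added after their values were seen, as were the called marker genes and the ratio of Calm3 to Calm2. Some genes that the rule names are not reported here.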

Additional observations from a re-analysis of the deposited data

How the results depend on the processing

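The number of genes called by edgeR was 3094, and it was 4774 with limma voom, 342 with the GC trend removed, 294 with GC and length trends removed, 746 with the GC trend removed and a replicate block, and 1155 to 4712 when a library was left out (without control 4 and without transgenic 6). Of the 9 genes, 2 were called lower. This was 1 without a filter on low counts, when Ppp3r1 gave -0.35 (edgeR adjusted p = 0.0586), 0 in each of the 3 fits with the GC trend removed, and 1 to 3 without a single library. The count called higher was 0, and 0 to 1 without a single library. With a library left out and the GC trend removed, 0 were called in either direction.

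Of the other calcium and calmodulin genes 16 were called, and 27 with limma voom, 30 with 1 surrogate variable, 0 with the GC trend removed, 0 with GC and length trends removed, 2 with the GC trend removed and a replicate block (Dnm3 and Marcks, both lower), and 3 to 29 without a single library.

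Log2 fold changes turned sign for 4 genes that were not called. With the GC trend removed, with GC and length trends removed, and with the GC trend removed and a replicate block, Calm2 gave 0.12, 0.071 and 0.13 and Camkk2 -0.060, -0.013 and -0.054. Camkk1 gave -0.015 with the GC trend removed and -0.028 with GC and length trends removed, and Camk1d 0.0059 with the GC trend removed and a replicate block. With a library left out, Camkk2 ranged from -0.0037 (without control 4) to 0.099, Camk1d from -0.13 to -0.0045, Camkk1 from 0.061 to 0.19 and Calm2 from -0.12 to -0.051. With the GC trend removed as well, Camkk2 ranged from -0.10 to -0.0034, Camk1d from -0.074 to 0.048, Camkk1 from -0.066 to 0.028 and Calm2 from 0.088 to 0.15. Ppp3cb and Ppp3r1 stayed below 0 in every fit run.

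The labels do not say whether libraries with the same replicate number belong together. The correlations below cannot settle this, since the GC slope of each library also enters them. Same-numbered libraries of the 2 groups had deviations from the group means that correlated at 0.20, -0.03, -0.19, -0.05 and 0.02, and 1 of 10 libraries matched its own number best. With the replicate block 4594 genes, 2 of the 9 genes and 28 of the other listed genes were called. Without the block these counts were 3094, 2 and 16.

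Depth does not limit the 9 genes, whose lowest count was 711. The number of libraries, the unknown sex and animal of each, and the GC slope that moved with genotype limit what can be read from them.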
